A study of Mus musculus with 36 samples.

Results

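Perilipins are proteins that coat the surface of lipid droplets, the organelles in which cells keep triglycerides and sterol esters. The members Plin2, Plin3, Plin4 and Plin5 were examined in the mouse suprachiasmatic nucleus, the hypothalamic clock of the brain. They were chosen by symbol: 4 rows of the 24883 rows in each of the 2 deposited tables, and all 4 passed the filter on low values (a mean of at least 1 over the libraries). They were chosen because the chow libraries already showed a strong daily pattern of Plin4, so the chow time pattern of these genes is given below as a description, without a test.

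The data are mRNA sequencing of a dissected region enriched for the suprachiasmatic nucleus from adult C57BL/6J mice. The control groups had 10 weeks of normal chow and the other groups had 10 weeks of high-fat diet. Each diet was sampled at 6 time points (0, 4, 8, 12, 16 and 20), which the labels call TP and the deposited table headers call ZT, zeitgeber time, with 3 libraries in each of the 12 groups (36 libraries). Whether the 3 libraries of each group stem from different animals is not stated, and the p-values therefore measure only the spread between these libraries, which may be technical. Chow and high-fat values come from separate tables, so diet cannot be told apart from any difference in table making.

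In a resting cell the droplet surface restrains the lipases that release fatty acids. PLIN2 and PLIN3 are found in most cell types, PLIN2 bound to droplets throughout and PLIN3 partly free in the cytosol until new droplets form. PLIN4 is abundant in fat tissue and coats small nascent droplets, and PLIN5 is typical of tissues with high fatty acid oxidation, where it links droplets to mitochondria. PLIN1 is the perilipin of fat cells. In the brain, droplets have been described mostly in glia, ependymal cells and microglia.

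Levels are FPKM (fragments per kilobase of transcript per 1000000 fragments), a unit that allows comparison between genes because it is per length, rescaled so that every library sums to 1000000. The deposited FPKM sums ranged from 302899 to 432336 per library, and read totals were not given. Markers of the suprachiasmatic nucleus were present, with a mean of at least 1 for 10 of 10 marker genes and a summed level of 331 to 4454 per library. The sum was mostly Avp, whose chow median was 1680 against a median of 1785 for the sum. In 3 libraries the summed level of 12 liver genes was more than 10 times the median of 77.8: chow ZT 0 replicate 1 at 5368, chow ZT 4 replicate 1 at 1270 and high-fat ZT 0 replicate 3 at 968. Several results that rest on these libraries are given with and without them. Others, among them the comparisons of overlap and the Plin4 likeness values, are given only with them. Fat-cell markers were near 0: the 8 adipocyte genes summed to 0.265 to 7.45 per library and 0 of 8 had a mean of at least 1. In tissue homogenate, fewer cells of a type and less RNA per cell cannot be told apart.

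All 4 genes lie on the minus strand (GENCODE M21 on GRCm38), and 3 of them share a stretch of chromosome 17. Plin4 covers chr17:56100591-56109803 and Plin5 covers chr17:56111601-56117596, only 1797 bases away. Plin3 lies further along at chr17:56277476-56292873, and Plin2 stands alone at chr4:86648386-86670060. The end of Plin4 overlaps by 17 bases the gene Hdgfl2 on the plus strand, whose row under the older symbol Hdgfrp2 had a mean of 76.1.

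The promoters of the neighbours Plin4 and Plin5 are shown because these genes sit side by side and yet had different daily patterns. The promoter of Plin2 is added because it holds the only CACGTG among the members. All were taken from RefSeq on GRCm38.p6 and run 5′ to 3′ on the minus strand from 250 bases before the start site to 10 bases after it, with the matches named below in capitals. Positions are chr17:56109773-56110032 for Plin4, chr17:56117539-56117798 for the upstream start of Plin5 and chr4:86670050-86670309 for Plin2.
Plin4: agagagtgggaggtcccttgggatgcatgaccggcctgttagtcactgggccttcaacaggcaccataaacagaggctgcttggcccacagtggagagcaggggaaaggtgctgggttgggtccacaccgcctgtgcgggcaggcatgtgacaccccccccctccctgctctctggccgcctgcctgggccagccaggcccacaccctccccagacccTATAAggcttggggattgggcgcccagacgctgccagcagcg
Plin5: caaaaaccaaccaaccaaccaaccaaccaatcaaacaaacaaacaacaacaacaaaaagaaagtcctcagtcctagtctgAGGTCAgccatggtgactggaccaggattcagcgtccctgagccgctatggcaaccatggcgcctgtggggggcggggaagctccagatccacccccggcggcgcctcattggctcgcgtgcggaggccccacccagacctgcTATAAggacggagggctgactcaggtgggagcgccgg
Plin2: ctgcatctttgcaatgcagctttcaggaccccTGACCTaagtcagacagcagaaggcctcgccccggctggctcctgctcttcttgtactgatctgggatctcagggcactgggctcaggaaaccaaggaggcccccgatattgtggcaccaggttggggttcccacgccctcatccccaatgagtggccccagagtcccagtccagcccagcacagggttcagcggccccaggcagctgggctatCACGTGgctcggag

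Searched in windows of 300 bases (250 before and 50 after the start), TATAA on the coding strand lay at position -32 of Plin4 and at position -27 of Plin5, counted from the start site. This motif, the core of the TATA box, occurred in 17.5% of all 32851 RefSeq windows. The letters AGGTCA, the core of many nuclear receptor sites and searched on both strands, were found at position -170 of Plin5, at position 13 after its downstream start and, on the other strand, at position -218 of Plin2, and in 16.3% of all windows. The E-box letters CACGTG, bound by clock factors, began at position -4 of Plin2 and occurred in 7.15% of all windows. None of the 5 windows of the 4 members held AGAACA (19.0% of all windows), GTAAACA (3.65%) or TTATGTAA (0.938%), the letters searched for the glucocorticoid receptor, FoxO factors and the D-box. No CACGTG was in the windows of Plin3, Plin4 or Plin5. These matches describe letters only.

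Of the 4 members Plin3 had the highest mean level and Plin5 the lowest. Over the 36 libraries the mean level was 18.3 ± 3.64 for Plin3, 13.7 ± 2.82 for Plin2, 4.56 ± 2.87 for Plin4 and 2.77 ± 0.862 for Plin5 (SD, n = 36). Plin3 exceeded Plin2 in 33 of 36 libraries and Plin2 exceeded Plin4 in all 36. Plin1 is no member, and its row was between 0 and 0.179, with 7 libraries at 0.

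The order of Plin4 and Plin5 turned with the time of day. Plin4 was above Plin5 in 0 of 6 libraries at ZT 4 and in 2 of 6 at ZT 8. It was above Plin5 in 6 of 6 libraries at each of ZT 12, ZT 16 and ZT 20, and in 4 of 6 at ZT 0. The median ratio of the Plin4 level to the Plin5 level went from 0.543 at ZT 4 to 3.41 at ZT 12.

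**Figure D1:**
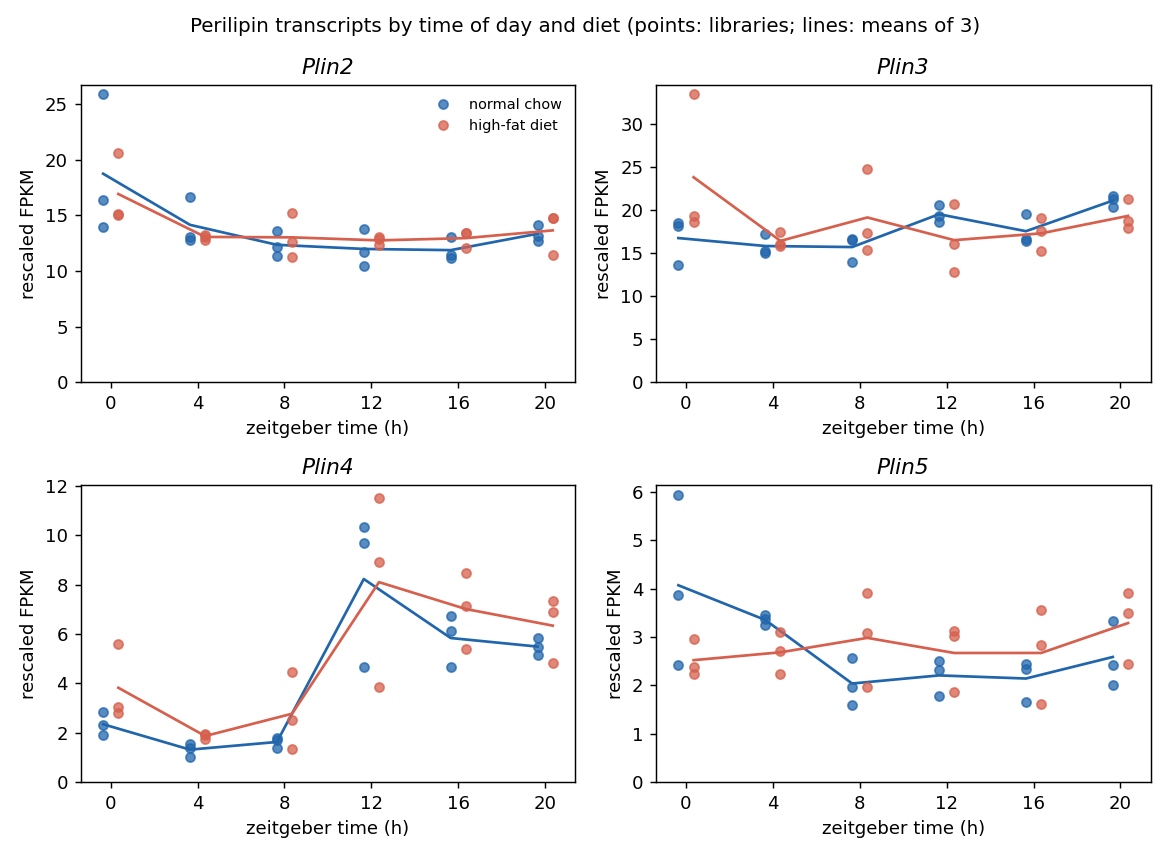
Level of each perilipin (rescaled FPKM, vertical axis from 0) against zeitgeber time in hours, with a point for each library, a line through the means of 3, blue for chow and red for high-fat diet. In chow the 9 Plin4 libraries at ZT 12 to 20 lie between 4.64 and 10.3, above the 9 at ZT 0 to 8, which end at 2.83; the single high points of Plin2 (26.0) and Plin5 (5.93) at ZT 0 are the same chow library.

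Plin4 was low through ZT 0 to 8 and high through ZT 12 to 20 in chow. The 3 chow libraries had levels of 1.90, 2.32 and 2.83 at ZT 0. They had 1.02, 1.38 and 1.56 at ZT 4 and 1.39, 1.71 and 1.80 at ZT 8. The level was then 4.66, 9.69 and 10.3 at ZT 12, the widest spread of the chow groups. All 9 chow libraries from ZT 12 on were above all 9 earlier ones, as for 0.0264% of rows, with 4.64, 6.13 and 6.74 at ZT 16 and 5.15, 5.49 and 5.83 at ZT 20. The 24 h curve fitted to log2(level + 1) had a peak-to-trough fold of 3.84 and a peak at ZT 15.9 ± 0.485 h (SE). Of all rows, 0.845% passed the test of a chow rhythm; that contrast chose the members, so nothing is read from it here.

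The high-fat libraries did not enter the chow fit that drew attention to Plin4, but the members were chosen with earlier results of these data known. Under high-fat diet Plin4 had a similar course with more overlap. The levels were 2.82, 3.05 and 5.60 at ZT 0. They were 1.75, 1.93 and 1.93 at ZT 4 and 1.36, 2.51 and 4.46 at ZT 8. At ZT 12 they were 3.87, 8.91 and 11.5, again the widest spread of the groups. Of the 9 libraries from ZT 12 on, 6 were above the highest earlier library, with levels of 5.40, 7.14 and 8.49 at ZT 16 and 4.81, 6.88 and 7.32 at ZT 20. The 3 that were not had 3.87, 4.81 and 5.40.

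The fitted high-fat rhythm of Plin4 had a fold of 3.04, a log2 difference from peak to trough of 1.61 ± 0.282 (SE, n = 18) and a peak at ZT 16.2 ± 0.671 h. It had an unadjusted p of 9.46e-05 and did not pass the threshold of 0.05 after adjustment over all rows (limma moderated F test, Benjamini-Hochberg adjusted p = 0.0973). Few genes passed this test at all: 11 of 15106 rows, or 0.0728%, with 8.64% at an unadjusted p under 0.05. Of the members 0 of 4 passed, and 1 of 4, Plin4, had an unadjusted p under 0.05. Over 9 other settings (filter, pseudocount, scaling, variance trend, replicate block, tissue scores, library removal and time as a factor) its adjusted p ran from 0.0519 to 0.535 and no value passed. Without the liver-rich library of this diet the log2 difference was 1.69 and the adjusted p was 0.0569.

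The mean log2 level of Plin4 under high-fat diet was 1.11 higher over the 9 libraries at ZT 12 to 20 than over the 9 at ZT 0 to 8. This split was chosen after the values were seen, so the difference is a description. Leaving out each library in turn gave 1.03 to 1.22. Over all 15173 rows, 0.0264% had all 9 high-fat libraries at ZT 12 to 20 above all 9 earlier ones; Plin4 was not among them.

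Both high-fat libraries with high Plin4 before ZT 12 stood apart in tissue markers. The ZT 0 library with 5.60, the liver-rich one, had the highest oligodendrocyte marker sum of the 36 libraries (9198). It also had the highest sums of meninges (584), mural (285) and endothelial (259) markers. The ZT 8 library with 4.46 had the lowest sum of suprachiasmatic markers (331) and an oligodendrocyte sum of 7969. It also had the highest astrocyte (3720) and neuron (4146) sums. Its deposited FPKM sum was the lowest (302899), so its levels were scaled up the most. The ZT 12 library with 3.87 had the lowest oligodendrocyte sum (4071). These libraries were picked by their Plin4 levels, and the same order did not hold everywhere. In chow at ZT 12, Plin4 levels of 4.66, 9.69 and 10.3 went with oligodendrocyte sums of 6900, 7093 and 5590. Whether tissue makeup bears on the Plin4 level was not tested. An oligodendrocyte score was added as a covariate after the Plin4 values above were seen. With it, Plin4 was among 24 genes called (log2 difference 1.93, limma adjusted p = 0.0101, peak at ZT 15.9). That covariate was chosen from the values tested here, so its result is a description and nothing is read from it. With meninges, liver and blood scores as covariates in its place the log2 difference was 2.07 and the adjusted p was 0.122.

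The other members showed no high-fat rhythm that passed the test. Plin2 had a fitted fold of 1.21 (log2 0.27 ± 0.115, SE, n = 18) with a peak at ZT 23.6 and an adjusted p of 0.587. Plin3 had a fold of 1.24 (0.31 ± 0.179) with a peak at ZT 23.3 and an adjusted p of 0.655. Plin5 was close to flat, with a fold of 1.04 (0.05 ± 0.184) and an adjusted p of 0.980. Without the liver-rich high-fat library the fold was 1.12 for Plin2 and 1.10 for Plin3 (log2 0.16 and 0.14). In chow, as a description, the fitted folds were 1.41 for Plin2 with a peak at ZT 0.55, 1.25 for Plin3 with a peak at ZT 17.3, and 1.58 for Plin5 with a peak at ZT 0.825. Without the liver-rich chow libraries the Plin2 fold was 1.21 and the Plin5 fold 1.39. The difference in rhythm between the diets was not tested.

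Plin2, the general droplet coat protein, varied little apart from ZT 0. Its chow levels at ZT 0 were 14.0, 16.3 and 26.0, and its high-fat levels there were 15.0, 15.1 and 20.6. From ZT 4 to ZT 20 its levels lay between 10.5 and 16.6 in chow and between 11.3 and 15.2 under high-fat diet. The highest value of each diet at ZT 0, and the highest chow value at ZT 4 (16.6), were in the 3 liver-rich libraries.

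Plin3, the perilipin that moves from cytosol to new droplets, was narrowly spread in most groups. In chow its lowest levels were 13.6 at ZT 0 and 14.0 at ZT 8, and its levels at ZT 20, the group with the highest median, were 20.4, 21.3 and 21.7. Under high-fat diet the levels were 18.6, 19.4 and 33.5 at ZT 0 and 15.4, 17.4 and 24.7 at ZT 8. The 33.5 and 24.7 were in the same libraries that held the high early Plin4 values, with the oligodendrocyte sums given above. Deviations of Plin3 and Plin4 from their group means had a Pearson r of 0.729 over the 36 libraries. That value is a description, since tissue makeup and the rescaling factor are shared by all genes of a library.

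Plin5, the perilipin of oxidative tissues, was highest in chow at the start of the day. Its chow levels were 2.41, 3.86 and 5.93 at ZT 0 and 3.25, 3.36 and 3.45 at ZT 4. They were 1.59, 1.97 and 2.56 at ZT 8 and stayed between 1.65 and 3.34 from ZT 12 on. The 5.93 was in the chow library with the highest liver sum, which also had the highest choroid plexus (395) and ependymal (398) marker sums. The choroid plexus sum there was mostly Ttr, which reached 363 in chow, while Clic6, the next gene, reached 44.3. In the ependymal list Rarres2 reached 215 in chow. These sums therefore need not mark choroid plexus or ependymal tissue, and their source was not tested. Under high-fat diet Plin5 ranged from 1.62 to 3.92 over all time points, with group medians of 2.38 at ZT 0 and 3.50 at ZT 20.

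**Figure D2:**
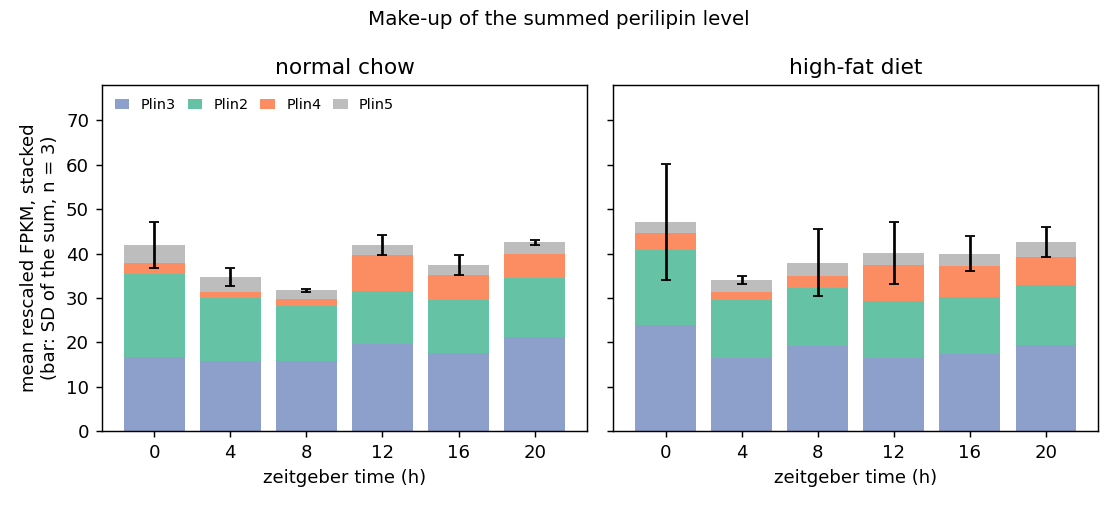
Stacked bars of the mean level of the 4 perilipins (rescaled FPKM, from 0) at each zeitgeber time, chow on the left and high-fat diet on the right; the black line is the SD of the sum over 3 libraries. The Plin4 band widens from 5.13% of the sum at ZT 8 to 19.4% at ZT 12 in chow.

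The make-up of the summed perilipin level changed with Plin4. In chow Plin4 was 3.81% ± 0.762 of the sum at ZT 4 and 19.4% ± 6.58 at ZT 12 (SD, n = 3). Under high-fat diet it was 5.49% ± 0.243 at ZT 4 and 19.4% ± 6.75 at ZT 12. The sum itself moved less, from 31.8 ± 0.32 at ZT 8 to 42.6 ± 0.548 at ZT 20 in chow. It was widest at ZT 0 of high-fat diet, at 47.1 ± 13.0, the group that holds the liver-rich library with Plin3 at 33.5.

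Averaged over the 6 time points, no perilipin differed between the diets past the threshold. The test called 2 of 15173 rows, or 0.0132%, and 0 of the 4 members (limma; each adjusted p = 1.0), with 2.56% of rows and 1 of 4 members at an unadjusted p under 0.05. That member was Plin4, with a mean level of 4.99 ± 2.90 under high-fat diet and 4.14 ± 2.86 in chow (SD over 18 libraries of 6 time points). Its log2 difference was 0.26 ± 0.115 (SE), with a 95% confidence interval of 0.03 to 0.50 and an unadjusted limma p of 0.0300, and its mean was higher under high-fat diet at 5 of 6 time points. Without the 3 liver-rich libraries the difference was 0.21 and the unadjusted p was 0.0784.

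The intervals of the other 3 members included 0. The high-fat minus chow log2 difference was 0.01 ± 0.061 for Plin2 (interval -0.11 to 0.14), 0.06 ± 0.078 for Plin3 (-0.10 to 0.22) and 0.05 ± 0.101 for Plin5 (-0.16 to 0.25). Without the 3 liver-rich libraries the Plin3 difference was -0.02, of the opposite sign.

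**Figure D3:**
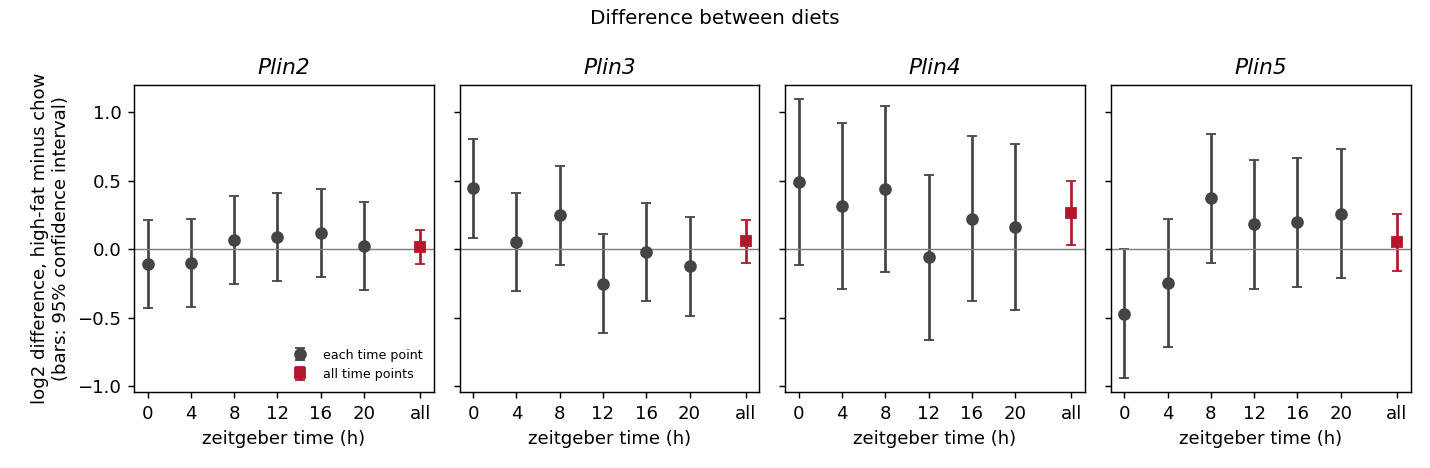
Log2 difference between the diets (high-fat minus chow) for each perilipin at each zeitgeber time (grey circles) and over all time points (red squares), with 95% confidence intervals from limma. The interval over all time points excludes 0 for Plin4 only (0.03 to 0.50), before any adjustment over genes; Plin5 is below 0 at ZT 0 and ZT 4 and above it at the other 4 time points.

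At single time points none of the 24 contrasts passed (6 for each member, limma, adjusted within each time point). The chow values in them belong to the pattern that drew attention to these genes. The background was 0% of rows called at ZT 0, 4, 8, 16 and 20 and 0.00659% at ZT 12. An unadjusted p under 0.05 came up in 2 of the 24, both at ZT 0, where 3.9% of all rows had one. Over the time points that share ran from 0.975% of rows at ZT 12 to 16.1% at ZT 8. Plin3 at ZT 0 had a log2 difference of 0.44 ± 0.175 (unadjusted p = 0.0174, limma adjusted p = 0.990), and Plin5 at ZT 0 had -0.47 ± 0.229 (unadjusted p = 0.0493, limma adjusted p = 1.0). Both rest on ZT 0, where each diet holds a liver-rich library; without the 3 such libraries the differences were 0.047 for Plin3 and -0.19 for Plin5, neither at an unadjusted p under 0.05 in limma.

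The 3 libraries of the diets did not overlap in 3 of these 24 contrasts; over all rows and time points 10.2% of contrasts did not overlap. Plin3 at ZT 0 was higher in all 3 high-fat libraries (18.6 to 33.5) than in all 3 chow libraries (13.6 to 18.5), as were 3.15% of rows. Plin4 at ZT 4 was higher under high-fat diet (1.75 to 1.93 against 1.02 to 1.56), as were 4.61% of rows. Plin5 at ZT 4 was lower (2.24 to 3.11 against 3.25 to 3.45), as were 2.72% of rows. For Plin2 the libraries overlapped at all 6 time points.

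At ZT 8 the number of genes called depended on a single library: leaving out high-fat ZT 8 replicate 1 raised the calls over all time points from 1 to 1100. The Plin4 difference at ZT 8 was 0.44 with it and 0.45 without it. Over all libraries left out in turn it ran from 0.13, without high-fat replicate 2, to 0.74, without high-fat replicate 3, and was called in no case.

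Genes that act with the perilipins on the droplet were taken from lists compiled with earlier results of these data known. The 8 lipases and lipase partners (among them Pnpla2, the triglyceride lipase, and its coactivator Abhd5) had 0 calls for a high-fat rhythm and 0 at an unadjusted p under 0.05. Their median fitted fold was 1.10, against 1.15 over all 15106 rows. The lowest p-values were those of G0s2, an inhibitor of PNPLA2 (fold 1.27, limma adjusted p = 0.576), the monoglyceride lipase Mgll (1.34, 0.642) and the lysosomal lipase Lipa (1.11, 0.684). The 9 tested genes of triglyceride and sterol ester synthesis had 0 calls and 0 at an unadjusted p under 0.05 as well, with a median fold of 1.16. The lowest p-values there belonged to Lpin2, a phosphatidate phosphatase (fold 1.19, limma adjusted p = 0.620), the acyltransferase Agpat2 (1.29, 0.640) and Dgat1, which makes triglycerides (1.15, 0.667). Of the 11 tested genes of droplet formation and surface 0 were called by limma. There, 2 had an unadjusted p under 0.05: Cidea, which promotes droplet fusion, with a fold of 1.46 and an adjusted p of 0.539, and Faf2, with a fold of 1.18 and the same adjusted p. Cideb followed with a fold of 1.22 and an adjusted p of 0.640.

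Among 35 tested genes of fatty acid uptake, oxidation and PPAR signalling, 1 was called. That was Fabp7, the brain fatty acid binding protein of astrocytes and progenitors, with a fold of 2.20 and a fitted peak at ZT 2.2 (limma adjusted p = 0.00149). Its fitted peak was thus in the hours when Plin4 was low. Angptl4, a lipoprotein lipase inhibitor and PPAR target that was singled out after its values were seen, had a fold of 1.71 with a peak at ZT 20.4 and an adjusted p of 0.117. The list's median fold was 1.16.

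The list of glucocorticoid- and FoxO-responsive genes had the largest median fold of the 5 lists, 1.48 against 1.15 over all rows. Of its 23 genes 3 were called and 14 had an unadjusted p under 0.05, against 8.64% of all rows. The fitted peak fell between ZT 12 and ZT 20 for 18 of the 23, and for 20.2% of all rows. The list was compiled with earlier results of these data known, so these shares are a description and nothing is read from them. Called were Mfsd2a, a lysophospholipid transporter (fold 2.03, peak at ZT 15.9, limma adjusted p = 0.000112), Hif3a, a hypoxia-inducible factor subunit (2.81, ZT 13.3, 0.0395), and the transcription factor Klf15 (1.48, ZT 13.9, 0.00897). The kinase gene Sgk1, also singled out after its values were seen, had a fold of 3.01 with a peak at ZT 13.1 and an adjusted p of 0.0973, the same adjusted p as Plin4. Mfsd2a, Hif3a and Plekhf1 of this list are also among the genes most like Plin4 below, so they are no separate evidence.

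**Figure D4:**
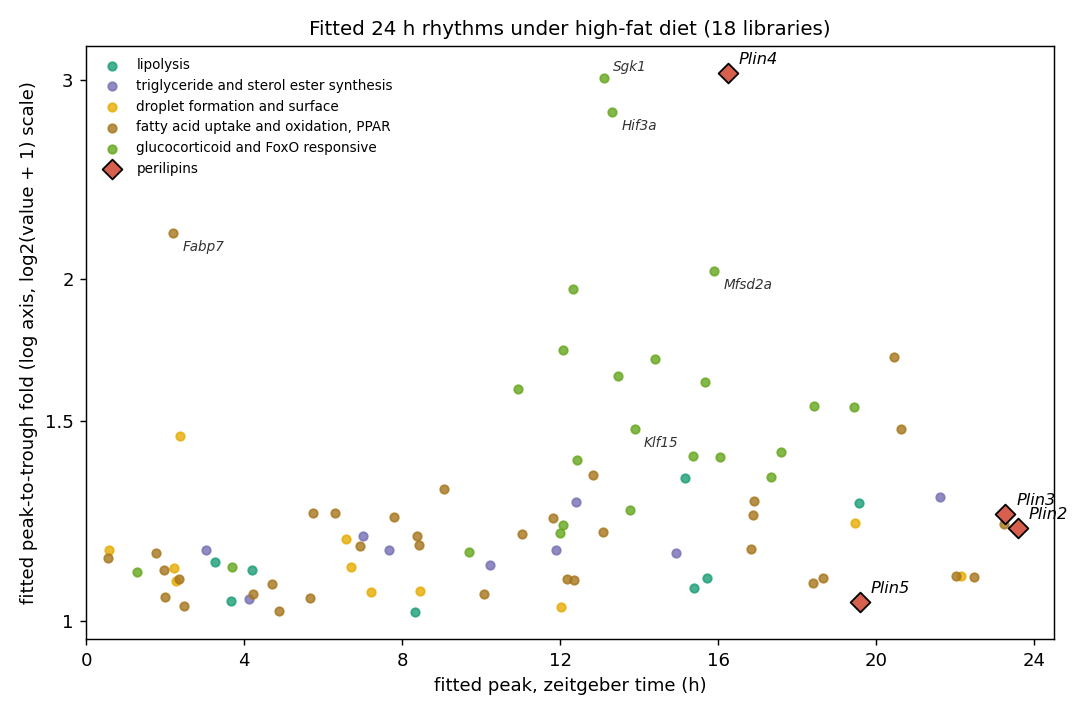
Fitted peak (zeitgeber time, horizontal) and fitted peak-to-trough fold (log axis) under high-fat diet for the 4 perilipins (red diamonds) and the tested genes of the 5 lists (coloured points). Plin4, at a fold of 3.04 and ZT 16.2, lies with Sgk1, Hif3a and Mfsd2a, while Plin5 is near the bottom at 1.04.

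For diet, 0 genes of the 5 lists were called by limma. Without the 3 liver-rich libraries 1 gene, of the fatty acid list, was called. An unadjusted p under 0.05 was found for 6 of the 35 fatty acid genes, 3 higher and 3 lower, against 2.56% of all rows, for 1 glucocorticoid-responsive gene, and for 0 genes of the other lists. Angptl4 had a high-fat minus chow log2 difference of 0.27 ± 0.072 at an adjusted p of 1.0. Fabp7 had -0.29 ± 0.093. Among glucocorticoid-responsive genes the lowest p-values were those of Txnip (0.17 ± 0.075), Hif3a (0.20 ± 0.117) and Sult1a1 (0.11 ± 0.104). The lipases with the lowest p-values, Lipe (0.079 ± 0.046), Pnpla2 (0.077 ± 0.046) and Pnpla3 (-0.17 ± 0.135), had differences within 2 standard errors of 0. So did Dgat1 (-0.055 ± 0.053), Soat1 (0.081 ± 0.081) and Dgat2 (-0.079 ± 0.078) of lipid synthesis, and Rab18 (-0.062 ± 0.034), Ubxn8 (-0.038 ± 0.028) and Faf2 (0.051 ± 0.042) of the droplet surface. List medians ran from 0.01 to 0.02.

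The genes most like each member were the 5 with the highest Pearson r of log2 level over the 36 libraries; these values are descriptions, and libraries share depth, tissue makeup and time of day. Closest to Plin4 were Mfsd2a (r = 0.816), Adipor2, an adiponectin receptor (0.800), Kirrel2 (0.782), Plekhf1 (0.770) and Hif3a (0.765). After each group's mean was removed, r was 0.867 for Hif3a and 0.773 for Adipor2 but 0.143 for Mfsd2a. Kirrel2 passed the test of a high-fat rhythm (fold 2.78, fitted peak ZT 15.7, limma adjusted p = 0.0399), and Adipor2, at a fold of 1.22, did not (adjusted p = 0.509).

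Plin5 was most like genes of motile cilia, the axoneme genes Lrrc23 (r = 0.789), Dynlrb2 (0.775) and Rsph1 (0.757), followed by Rarres2 (0.750) and Pklr (0.746). Without the 3 liver-rich libraries these were 0.771, 0.773, 0.748, 0.729 and 0.658 over 33 libraries. Summed ependymal and tanycyte markers ranged from 153 to 398 over the libraries. Their part in the level of Plin5 was not tested.

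For Plin2 the closest genes were Mgst1 (r = 0.836), Rnase4 (0.810), Aqp9 (0.802), Fmo5 (0.799) and Selenbp2 (0.793). Without the 3 liver-rich libraries they fell to 0.507, 0.507, 0.501, 0.325 and 0.388, so the likeness of Plin2 to this set rested largely on those libraries. Plin3 was most like Anln (0.762), Tln1 (0.722), Ltbp1 (0.721), Pip4k2a (0.716) and Tgfb3 (0.714). Without those libraries the values were 0.672, 0.534, 0.553, 0.701 and 0.579.

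Of the genes next to Plin4 and Plin5 on chromosome 17, Sema6b and Ubxn6 had no called high-fat rhythm, with folds of 1.04 and 1.04 (adjusted p = 0.855 and 0.828), and Plin5 had 1.04 as given above. Lrg1 was under the filter in the high-fat libraries and was not tested there. Hdgfl2, which overlaps the end of Plin4, has a row only under its older symbol Hdgfrp2, and its fitted rhythm is not given. Beside Plin3, Fem1a and Ticam1 had folds of 1.10 and 1.05 (adjusted p = 0.674 and 0.951), and Arrdc5 and Uhrf1, with mean levels of 0.0262 and 0.770, were under the filter. Around Plin2, the folds of Rraga, Haus6, Dennd4c and Rps6 lay between 1.13 and 1.20, and none was called by limma.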

How the data were processed

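The authors deposited FPKM values per gene, in a table for each diet. Trimmomatic, TopHat and Cufflinks, with builds mm10 and GRCm38, are named in the submitters' processing notes, with no versions given; the library kit was stranded, per the labels' protocols. The 24883 rows of both tables have the same order. Here values were rescaled to 1000000 per library, and log2(value + 1) was tested with limma 3.58.1 (R 4.3.3, mean-variance trend) on rows with a mean of at least 1; p-values were Benjamini-Hochberg adjusted over all rows and called under 0.05. Fold changes on this scale understate the change of low genes. The high-fat rhythm was a 24 h cosine and sine over 18 libraries. Diet was fitted with time point as a factor over 36 libraries, or as contrasts of the 12 group means. The fits were run on simulated data whose noise was independent between rows and libraries. That check does not cover tissue differences shared by the genes of a library. The planned FPKM tests were kept because no read counts were used. A rough estimate of relative depth from low values spanned 1.97-fold over the libraries, with medians of 1.01 in chow and 1.00 under high-fat diet. Pearson r between libraries of a group was 0.935 to 0.982, and 0 pairs were identical. The members and lists were chosen with earlier results of these data known. Named genes are the members, the called genes of each list or otherwise its 3 lowest p, the 5 genes most like each member and 2 neighbours on each side. A list gene that this rule would name is not reported here.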

Additional observations from a re-analysis of the deposited data

How the results depend on the processing

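The number of genes called for a high-fat rhythm was 11. It was 5 with no filter on low values, 7 with a replicate block, 6 with meninges, liver and blood scores as covariates, 2 with time point as a factor, 24 with an oligodendrocyte score, and 4 to 13 when each library was left out in turn. Plin4 was called in none of these except with the oligodendrocyte score (log2 difference 1.93), a covariate added after the Plin4 values were seen. With each library left out the limma adjusted p of Plin4 was 0.0569 to 0.216. Nothing in the labels pairs libraries with the same number. Correlations of the deviations from group means ran from -0.346 to 0.555 over 198 same-numbered pairs (median 0.0254, against -0.0166 for other numbers), yet 25 of 36 libraries were on average most like their own number, a hint from the data and not from the design. Genes called for diet numbered 2 and were 8 with the 3 tissue scores. Genes called at single time points numbered 1. They were 2 with no filter, 0 with the deposited FPKM, 5 with the tissue scores, 2 without the liver-rich libraries, 0 with the oligodendrocyte score and 0 to 1100 when each library was left out, the latter without high-fat ZT 8 replicate 1. The cause of these shifts was not tested.

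The signs of some diet differences turned between settings, and no diet difference of a member was called in any setting. Over all time points Plin2 was -0.016 with the tissue scores and -0.0054 to 0.053 with each library left out, and Plin3 was -0.019 without the liver-rich libraries. With the tissue scores, Plin2 was 0.023 at ZT 0, -0.015 at ZT 16 and -0.15 at ZT 20, Plin3 was -0.062 at ZT 4 and 0.14 at ZT 16, and Plin4 was 0.20 at ZT 12. With the oligodendrocyte score Plin4 was 0.23 and Plin5 -0.036 at ZT 12. Plin2 at ZT 8 was -0.069 with the deposited FPKM and -0.067 with median-of-ratios factors, with which Plin3 at ZT 16 was 0.0071. Plin2 at ZT 4 was 0.015 without the liver-rich libraries. With each library left out, Plin2 spanned -0.28 to 0.14 for ZT 0, then -0.16 to 0.015 for ZT 4, -0.045 to 0.16 for ZT 8 and -0.034 to 0.14 for ZT 20. Plin3 spanned -0.088 to 0.060 for ZT 16 and Plin4 -0.38 to 0.34 for ZT 12. None of 1080 alternative member contrasts at single time points passed the threshold, and the lowest adjusted p was 0.179. Read depth per library was not given, so no interval from counts could be set.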
